A study of Mus musculus with 6 samples.

Results

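Matricellular genes encode secreted proteins that sit in the extracellular matrix and signal to cells without forming its load-bearing fibres. The 10 described here were chosen by name from the periostin, tenascin, thrombospondin, SPARC and CCN families, together with Cthrc1. They were found among the 47729 gene IDs of the deposited table through GENCODE M21 (build GRCm38), 1 ID for each symbol, and all 10 were among the 17365 genes with enough counts to test. The RNA came from the left ventricle of mice 9 days after surgery for transverse aortic constriction (TAC), in which a band around the aorta makes the heart pump against a raised pressure. There were 3 libraries in a control group and 3 in a Treg group, and by the series' title the latter mice were given regulatory T cells that had been induced in culture and deprived of CD28. All 6 libraries came from operated hearts, and no unoperated heart was analysed here. The labels give neither strain, sex, age nor genotype, nor the cell number, nor what the control mice received, so an effect of the cells and an effect of the way they were given cannot be told apart. The labels do not say that each library came from its own mouse, so p-values here cover only the variation among libraries, which may be partly technical.

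In a healthy adult ventricle these proteins are mostly scarce. Under pressure load, resident fibroblasts become activated, and tension and transforming growth factor beta (TGF-beta) then induce periostin, CCN2 and their relatives. The secreted proteins bind integrins, CD36, CD47 and heparan sulphate proteoglycans on cells, organise collagen fibrils, and hold or release latent growth factors. Their transcripts are therefore commonly read as markers of the active fibrotic state, although cardiomyocytes, endothelial cells and platelets make some of them too.

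None of the 10 genes differed between the groups past the threshold, which was an adjusted p under 0.05 in edgeR's quasi-likelihood test with Benjamini-Hochberg adjustment over all 17365 genes. Of those 17365 genes, 0% passed. At an unadjusted p under 0.05 edgeR had 1 of the 10, Ccn2, lower in the Treg libraries, where 8.31% of all genes were lower and 8.23% higher. The fitted difference was below 0 for 9 of the 10 genes, against 52.0% of all genes, and the median log2 fold change (Treg against control) was -0.41 against -0.02. The 10 genes were chosen with earlier results of these data known and share the same libraries. The count of 9 is therefore not a test. For 0 of the 10 genes did the groups separate completely: of all tested genes 11.7% had every Treg library below every control and 13.7% had every Treg library above. DESeq2, which called 3.74% of all genes, called 0 of the 10, and its smallest adjusted p among them was 0.169. In bulk tissue, fewer cells of a type and less RNA per cell cannot be told apart.

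**Figure D1:**
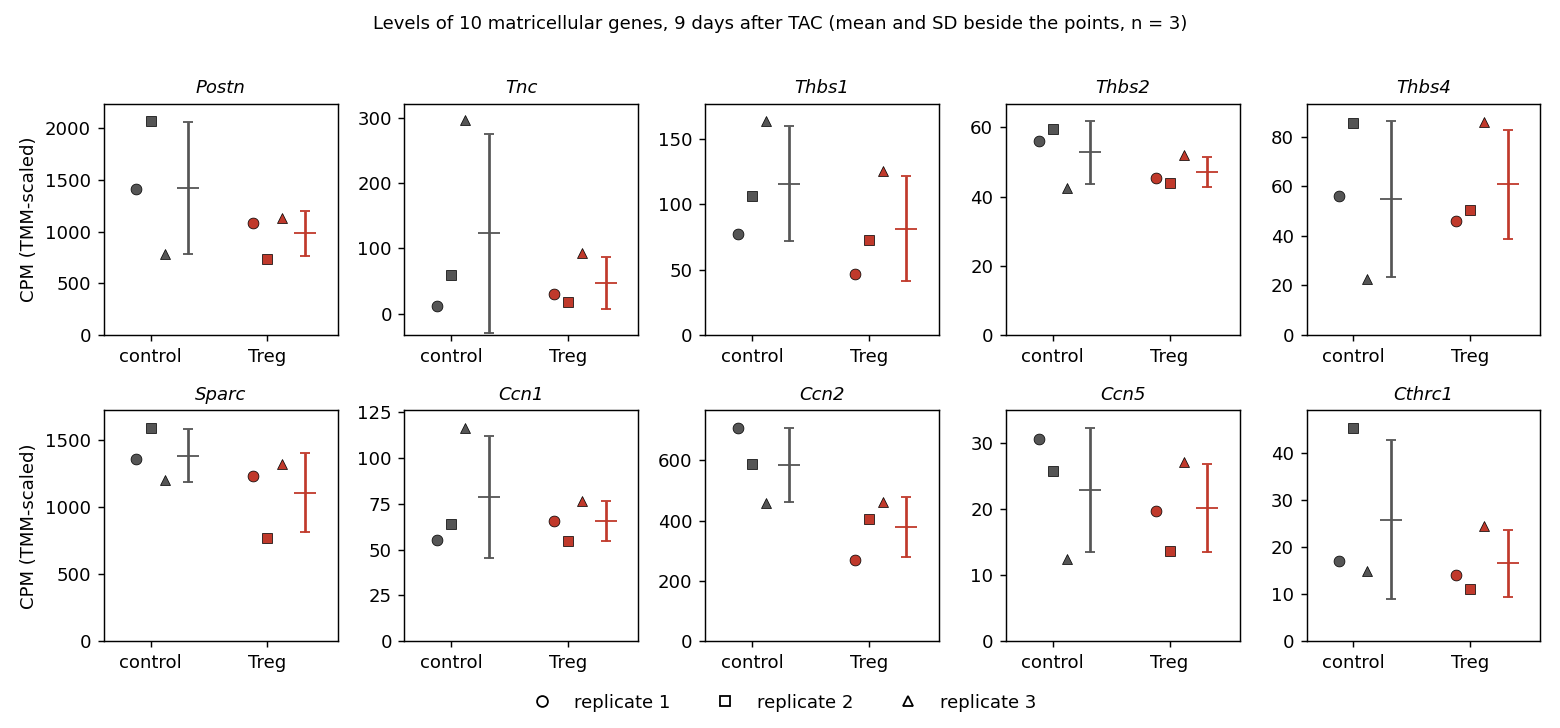
Level of each gene in CPM (counts scaled to a common library total with TMM factors; linear axes, starting at 0 except where the SD of Tnc extends below it) in the 3 control (grey) and 3 Treg (red) libraries, with the mean and SD beside the points; symbols mark replicate numbers. The 2 groups overlap in all 10 panels, and control replicate 3 is far above the others for Tnc and lowest for Thbs4.

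Library totals were close, at 28937253 to 29979080 estimated counts, and the 10 genes were well covered, with 306 to 62473 counts per gene and library. Together they made up 0.217% to 0.469% of the scaled library. The cardiomyocyte markers fixed for the tissue check were all tested (11 of 11), with summed levels of 41667 to 64053 CPM in control and 54875 to 72005 in Treg, and no fibroblast identity marker of 15 was at 0. Control replicate 3 stood apart: log2 CPM over all tested genes correlated at 0.936 to 0.957 between it and the other libraries and at 0.967 to 0.991 among the rest. Treg replicate 3 held atrial transcripts, with Myl7 at 1202 counts against 1 to 6 elsewhere.

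The levels spanned a wide range. Per kilobase of exon, on the TMM-scaled CPM scale, Sparc had the highest mean level over the 6 libraries (329 CPM per kb), followed by Ccn2 (168), Postn (138) and Ccn1 (35.7). The other 6 had means from 17.6 for Thbs4 to 7.13 for Thbs2. The steps on either side of Ccn1 were free of overlap between libraries: the lowest Postn library (84.3) lay above the highest of Ccn1 (57.8), and the lowest of Ccn1 (27.0) lay above the highest of Thbs4 (26.1). All other neighbours in this order had overlapping ranges.

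Periostin (Postn, chromosome 3, 54361109 to 54391037) is secreted by activated fibroblasts, binds integrins and collagen, and promotes collagen crosslinking. Its level was 1416, 2068 and 785 CPM in control replicates 1, 2 and 3, and 1087, 733 and 1133 CPM in the Treg libraries. The Treg values all lay inside or just under the control range, which was set by a high replicate 2 and a low replicate 3. Group means were 1423 ± 641 and 984 ± 219 CPM (SD, n = 3, as throughout), and the log2 fold change was -0.53 with an edgeR 95% interval of -1.35 to 0.29 (edgeR adjusted p = 0.463). The value depended on which control was kept: it was -0.17 with replicate 2 left out and -0.82 with replicate 3 left out.

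Cthrc1 (chromosome 15, 39076932 to 39087121) encodes a secreted glycoprotein with a short collagen-like repeat that is made by activated fibroblasts after injury. It stood at 17.1, 45.3 and 15.0 CPM in control and at 13.9, 11.0 and 24.5 CPM in Treg. Control replicate 2, the library with the most Postn, was again the highest, and the other 5 libraries lay within 11.0 to 24.5 CPM. The log2 fold change of -0.64 (SE 0.47, edgeR adjusted p = 0.507) came to 0.040 when that library was left out.

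Tenascin C (Tnc, chromosome 4, 63959785 to 64047015), a large glycoprotein nearly absent from the resting adult heart and re-expressed where tissue is being remodelled, varied most. Its level was 12.5, 59.2 and 297 CPM in the control libraries and 30.4, 18.6 and 92.9 CPM in the Treg libraries. The highest and the lowest library were both controls and were 23.7-fold apart, a wider spread than for any other of the 10 genes (1.40-fold for Thbs2 to 4.11-fold for Cthrc1). The log2 fold change of -1.38 had an edgeR interval of -3.83 to 1.07 (edgeR adjusted p = 0.52). Omitting control replicate 3 gave 0.40, and omitting Treg replicate 3 gave -2.32.

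In the CCN family, CCN2 is induced by TGF-beta and by the mechanosensitive factors YAP and TAZ. Its gene had the smallest unadjusted p of the 10 by edgeR. Ccn2 (chromosome 10, 24595442 to 24598683) stood at 707, 588 and 458 CPM in control and at 270, 405 and 461 CPM in Treg. A single pair of libraries overlapped, since Treg replicate 3 (461.5 CPM) lay just above control replicate 3 (458.3 CPM). The means were 584 ± 124 and 379 ± 98.2 CPM, a log2 fold change of -0.63 (interval -1.20 to -0.05, SE 0.25) with an unadjusted p of 0.0375 and an adjusted p of 0.285 by edgeR. It was the only one of the 10 whose unadjusted 95% interval excluded 0, and leaving out 1 library at a time gave -0.79 to -0.43. At an unadjusted p under 0.05, edgeR had 8.31% of all genes lower in Treg.

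A second annotated transcript complicates Ccn2. Gm15270, a processed transcript on the opposite strand, shares 665 of its 2053 exon bases with Ccn2. Its deposited estimated counts were 19.0% to 20.1% of those of Ccn2 in every library, and its level was 114 ± 26.3 CPM in control and 75.7 ± 19.6 in Treg (log2 fold change -0.60, edgeR adjusted p = 0.291). The libraries were stranded per the labels' protocols, but the sources used here do not give whether the counting used strand, so the reads of the 2 genes cannot be told apart. Smaller overlaps concern Thbs1, where Gm29233 had 3.10% to 3.89% of its count, and Tnc, where 8030451A03Rik had 1.73% to 3.39%.

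**Figure D2:**
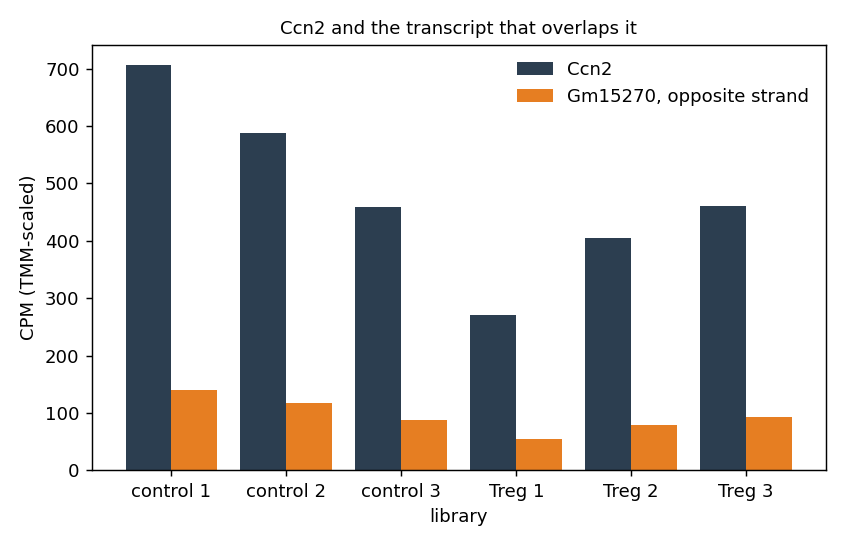
Level in CPM (TMM-scaled, linear axis from 0) of Ccn2 (dark bars) and of Gm15270, the overlapping transcript on the opposite strand (orange bars), in each of the 6 libraries. Both have the same order over the 6 libraries, highest in control replicate 1 (707 and 139 CPM) and lowest in Treg replicate 1 (270 and 54.4 CPM).

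Ccn1 (chromosome 3, 145646976 to 145649981), an integrin ligand whose gene responds within minutes to serum and stretch, did not follow Ccn2. It was at 55.3, 63.9 and 117 CPM in control and at 65.9, 54.5 and 76.4 CPM in Treg. All Treg libraries lay within or just below the span of the controls, and control replicate 3 alone was high. The log2 fold change was -0.26 (interval -0.93 to 0.41, edgeR adjusted p = 0.653) and 0.14 without control replicate 3. Among 11 early response genes, which also react to tissue handling, the summed level was 183 to 268 CPM in control and 248 to 479 in Treg, with the maximum in Treg replicate 3. Of these 11, 0 passed over all genes by edgeR. Jun, an AP-1 subunit, was at 39.3, 39.6 and 27.9 CPM in control and 71.8, 59.7 and 106 in Treg (log2 fold change 1.15, unadjusted p 0.00175, edgeR adjusted p = 0.136). The zinc finger factor Egr1 had 0.95 (unadjusted p 0.00200, edgeR adjusted p = 0.141). Both were higher in every Treg library than in any control, as were 13.7% of all genes. Of the 11, 4 had a fold change below 0, against 52.0% of all genes. Fosb was among the 4 (-1.94, and 0.071 without control replicate 3). Control replicate 3, where Ccn1 was highest, held the maximum of 4 of the 11 and of 33.3% of all tested genes. The part of handling in the Ccn1 values was not tested.

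Ccn5 (chromosome 2, 163820861 to 163833146) encodes a CCN protein without the C-terminal domain of its relatives, known for opposing CCN2 in the heart. It stood at 30.6, 25.8 and 12.4 CPM in control and 19.8, 13.7 and 27.1 CPM in Treg. The controls split into a high pair and a low library, and the Treg libraries spread over the same range (log2 fold change -0.18, SE 0.36, edgeR adjusted p = 0.814). Its sign depended on single libraries, at 0.087 with control replicate 1 left out and -0.48 with control replicate 3 left out. Per exon length, the level of Ccn2 was 15.5, 15.3 and 24.8 times that of Ccn5 in control and 9.19, 19.8 and 11.5 times in Treg. This ratio overlapped between the groups. Of the summed per-length level of the 6 CCN genes, Ccn2 held 67.7% to 84.3%, Ccn1 9.35% to 25.4% and Ccn5 2.84% to 7.37%.

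The thrombospondins comprise trimers (Thbs1 and Thbs2) and pentamers (Thbs3, Thbs4 and Comp). Thbs1 (chromosome 2, 118111876 to 118127133) binds CD36 and CD47 and can activate latent TGF-beta. It was at 77.5, 106 and 163 CPM in control and 46.9, 72.3 and 125 CPM in Treg. Each group contained a low and a high library, and the groups interleaved (log2 fold change -0.51, interval -1.43 to 0.41, edgeR adjusted p = 0.526). Leaving out control replicate 3 gave -0.17, and leaving out Treg replicate 3 gave -0.96.

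Platelets also store thrombospondin 1. Of the 9 platelet and megakaryocyte markers, 3 were highest in control replicate 3, where 33.3% of all tested genes were highest. Another 3 were highest in Treg replicate 1, where 13.0% of all tested genes were highest and Thbs1 was lowest. The summed level of the 9 was 16.1 to 49.2 CPM in control, highest in control replicate 3, and 16.7 to 18.0 in Treg. Most of this excess was Pf4, at 984 counts in control replicate 3 against 154 to 245 elsewhere. Gp6, a platelet collagen receptor, had 0 to 11 counts, with 0 in Treg replicate 3. The part of platelet RNA in the Thbs1 values was not tested.

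Thbs2 (chromosome 17, 14665500 to 14694235), which shapes collagen fibril assembly, had the smallest spread between libraries of the 10 (1.40-fold). It stood at 56.1, 59.6 and 42.5 CPM in control and 45.4, 43.8 and 52.2 CPM in Treg. All Treg values lay inside the control range, and the edgeR interval of the log2 fold change was the narrowest, from -0.53 to 0.21 around -0.16 (edgeR adjusted p = 0.61). It was -0.07 without control replicate 2 and -0.30 without control replicate 3.

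Thbs4 (chromosome 13, 92751590 to 92794818), a pentamer of tendon and muscle matrix that cardiomyocytes also induce under load, was the only one of the 10 with a fitted difference above 0. It stood at 56.2, 85.6 and 22.7 CPM in control and 46.0, 50.3 and 86.0 CPM in Treg. One library in each group was near 86 CPM, and the lowest was control replicate 3 (log2 fold change 0.15, SE 0.46, edgeR adjusted p = 0.887). The value was -0.22 with control replicate 3 left out, -0.18 with Treg replicate 3 left out, and -0.57 with both left out (edgeR adjusted p = 0.26). Valve, cartilage and tendon markers, when summed, had the same lowest and highest library as Thbs4, but not the same order between them. Control replicate 2 was at 54.0 CPM, below control replicate 1. Their summed level was 26.1 to 74.0 CPM in control, lowest in replicate 3, and 49.7 to 99.2 in Treg, highest in replicate 3. Treg replicate 3 held the maximum of 5 of the 9 markers and of 10.7% of all tested genes. Tnmd, Chad and Hapln1 were at 0 in control replicate 3, but had at most 13, 25 and 6 counts in any library. Tbx18, on the same list, went the other way. It was highest in control replicate 3 (15.2 CPM). In every Treg library it was lower than in any control (-0.57, edgeR adjusted p = 0.271), as were 11.7% of all genes. The part of such tissue in the Thbs4 values was not tested.

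**Figure D3:**
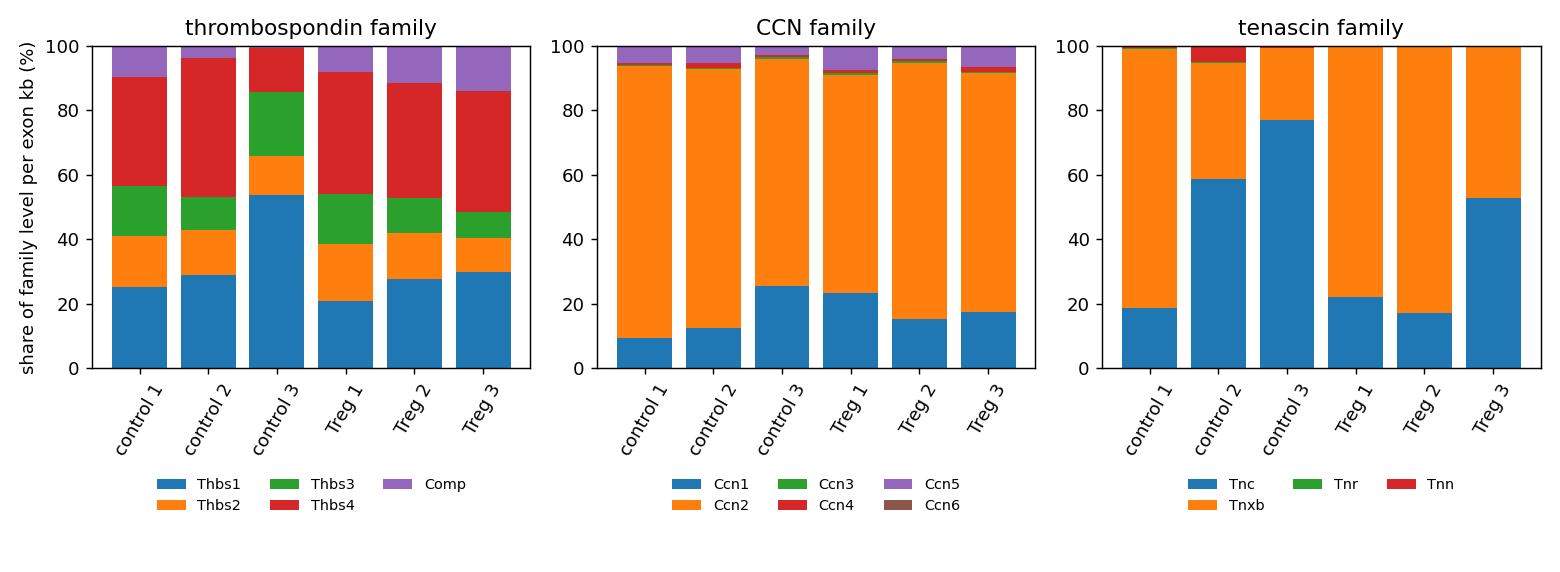
Share of each family's summed level per kilobase of exon (percent, vertical axis, 0 to 100) held by each gene in the 6 libraries, for the thrombospondin, CCN and tenascin families. Control replicate 3 differs from the other libraries in its thrombospondins, where Thbs1 holds 53.7% against 20.9% to 29.7% elsewhere, while Ccn2 is the largest CCN share in all 6.

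The shares of Thbs1 and Thbs4 in the thrombospondin family were similar in 5 libraries. Thbs1 held 20.9% to 29.7% and Thbs4 33.9% to 43.0% of the summed per-length level in those 5, whereas in control replicate 3 Thbs1 held 53.7% and Thbs4 13.8%. The smaller shares varied more in those 5, at 3.78% to 13.8% for Comp and 7.92% to 15.6% for Thbs3. In the tenascin family Tnc held 17.1% to 77.0%. Tnxb, the tenascin of resting connective tissue, held most of the remainder, and Tnc was the larger share in control replicates 2 and 3 and in Treg replicate 3.

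Sparc (chromosome 11, 55394500 to 55423183), a collagen-binding glycoprotein needed for procollagen processing and the most abundant of the 10 per length, is also made by endothelial cells. It was at 1357, 1592 and 1199 CPM in control and 1230, 771 and 1322 CPM in Treg. A single library, Treg replicate 2, was low, and the other Treg libraries lay inside the control range. The log2 fold change was -0.32 (interval -0.87 to 0.23, edgeR adjusted p = 0.506), and -0.12 without Treg replicate 2.

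Seen by library, the 10 genes did not share 1 order. Tnc, Thbs1 and Ccn1 were all highest in control replicate 3. Postn, Cthrc1, Sparc and Thbs2 were highest in control replicate 2, and 3 of these (Postn, Cthrc1 and Sparc) were lowest in Treg replicate 2. Thbs4, Ccn5 and Thbs2 were lowest in control replicate 3. In all, 9 of the 10 had their maximum in a control library, where 60.4% of all tested genes did. Control replicate 3 alone held the maximum of 33.3% and the minimum of 31.9% of all tested genes, and 3 and 3 of the 10. The Tnc to Postn ratio per exon length shows how far these genes parted: it was 0.0099, 0.032 and 0.42 in control and 0.031, 0.028 and 0.092 in Treg.

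**Figure D4:**
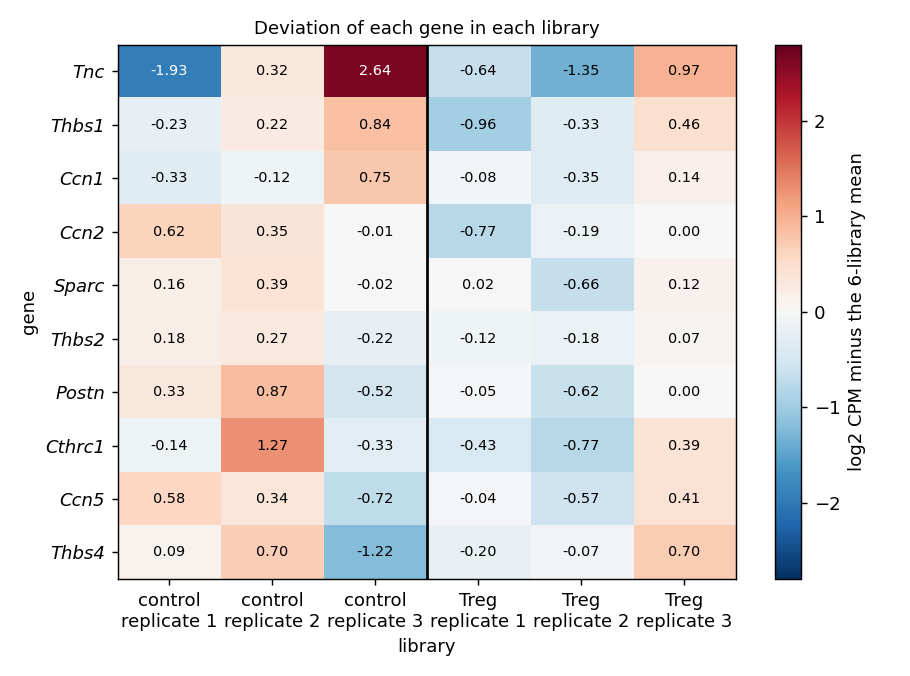
Log2 CPM of each gene in each library minus that gene's mean over the 6 libraries (red above, blue below), with libraries in columns and genes in rows. Control replicate 3 is at 2.64 for Tnc and at -1.22 for Thbs4, so that the same library is the extreme in opposite directions.

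Promoter sequence is shown for a gene of each of the first 2 orders that the RefSeq promoter table (GRCm38.p6) covers, Tnc and Postn, and for Ccn1, the CCN gene it covers. The table held windows for 6 of the 10 genes; of the 2 starts it lists for both Tnc and Postn, the downstream one is shown. Each sequence is the 250 bases before an annotated start, 5′ to 3′ on the gene's strand, with motif matches in capitals. The motifs searched on both strands were a TEAD motif (GGAATG), a SMAD motif (CAGACA), an AP-1 motif (TGANTCA), the SRF CArG box and a TATA box (TATAAA).
Ccn1, chr3:145649986-145650235, minus strand: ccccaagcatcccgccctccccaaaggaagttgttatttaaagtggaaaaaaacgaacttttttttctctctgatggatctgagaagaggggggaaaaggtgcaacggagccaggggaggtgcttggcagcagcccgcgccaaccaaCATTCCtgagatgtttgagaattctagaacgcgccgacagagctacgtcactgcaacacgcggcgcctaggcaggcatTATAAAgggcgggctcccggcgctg
Tnc, chr4:64046937-64047186, minus strand: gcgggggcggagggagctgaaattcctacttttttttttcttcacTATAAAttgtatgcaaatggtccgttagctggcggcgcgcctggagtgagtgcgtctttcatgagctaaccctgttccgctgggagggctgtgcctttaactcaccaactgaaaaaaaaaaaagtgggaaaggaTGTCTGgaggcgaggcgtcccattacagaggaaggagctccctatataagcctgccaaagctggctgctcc
Postn, chr3:54360857-54361106, plus strand: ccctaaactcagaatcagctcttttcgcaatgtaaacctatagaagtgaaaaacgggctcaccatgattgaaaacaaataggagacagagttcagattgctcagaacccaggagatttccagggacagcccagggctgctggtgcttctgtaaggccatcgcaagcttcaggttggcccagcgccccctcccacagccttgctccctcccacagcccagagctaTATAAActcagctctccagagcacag
The Ccn1 window held the TEAD letters on the reverse strand (as CATTCC) 103 to 98 bases before the start and a TATA box 25 to 20 bases before it. In the Tnc window the SMAD letters stood in reverse (as TGTCTG) at 71 to 66 bases and a TATAAA at 205 to 200 bases, and the Postn window had a TATA box at 26 to 21 bases. None of these matches overlapped another. Of 32851 windows of this length in the table, 12.6% held the TEAD letters, 17.1% the SMAD letters, 6.75% the AP-1 letters, 1.47% a CArG box and 12.4% TATAAA. The AP-1 letters and a CArG box were in none of the 3 windows shown. These matches describe letters, and binding was not measured.

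**Figure D5:**
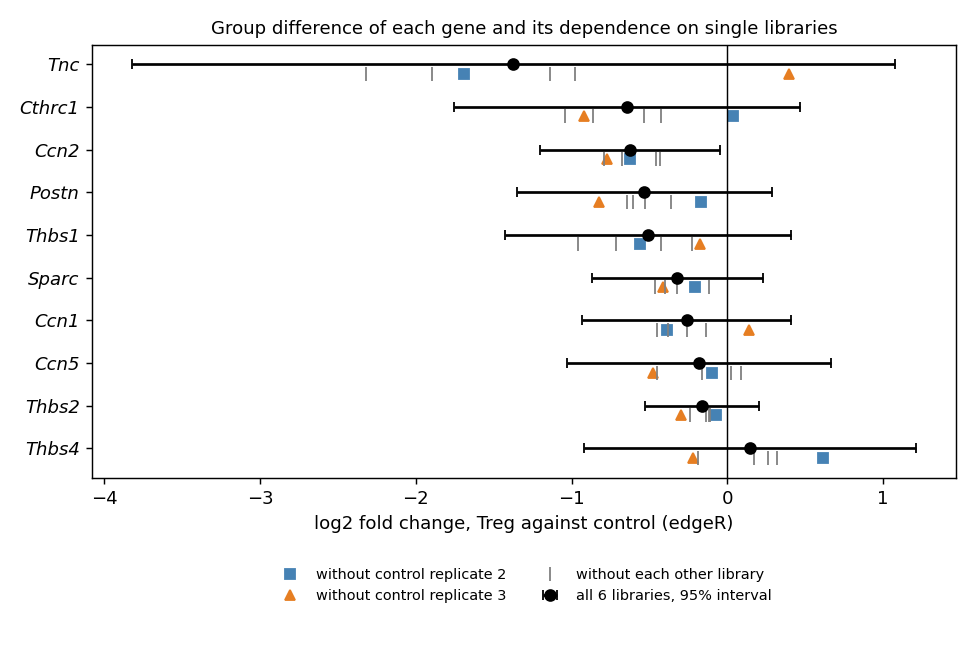
Log2 fold change of each gene, Treg against control, by edgeR with all 6 libraries (black, 95% interval) and after leaving out control replicate 2 (blue squares), control replicate 3 (orange triangles) or each other library (grey ticks). Only the interval of Ccn2, which is not adjusted for the number of tests, excludes 0. Tnc and Ccn1 cross 0 without control replicate 3, as Cthrc1 does without control replicate 2.

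Other genes of the same families gave a mixed picture. Of 16 relatives, 12 were tested and 0 passed over all genes by edgeR. At an unadjusted p under 0.05, 4 were lower and 1 was higher, where 8.31% and 8.23% of all genes were. The median log2 fold change was -0.44. The 2 with separate groups were both lower in Treg, as were 11.7% of all genes. Thbs3, a pentameric thrombospondin, was at 37.3, 29.7 and 47.9 CPM in control and 27.8, 22.5 and 26.5 in Treg (log2 fold change -0.58, edgeR adjusted p = 0.237). Fstl1, a secreted SPARC-family glycoprotein made by fibroblasts, was at 665, 852 and 720 CPM in control and 511, 345 and 588 in Treg (-0.63, edgeR adjusted p = 0.257). The other relatives at an unadjusted p under 0.05 were Tnn (-2.41), in which control replicate 2 was high at 3.77 CPM, Spock2 (-1.60) and Smoc2 (0.50). Tnn had -1.41 without control replicate 2. Spock2 was at 17.0, 8.21 and 41.2 CPM in control and 6.07, 10.5 and 5.40 in Treg, and had -0.79 without control replicate 3. Without that library Thbs3 had -0.39. Comp had 0.98 CPM in control replicate 3 and 28.4 in Treg replicate 3 (1.24, edgeR adjusted p = 0.456). It had 0.69 without Treg replicate 3, 0.72 without control replicate 3, 0.16 without both and 2.17 without control replicate 1. Tnr, Spock1, Spock3 and Ccn6 were too low to test, at 0 to 14 counts.

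Among 21 receptors for these proteins, all tested, 0 passed over all genes by edgeR, and 5 were lower and 2 higher at an unadjusted p under 0.05. Of all genes, 8.31% were lower and 8.23% higher at that p. The values below are for the receptors. The median log2 fold change was -0.07. Itga8, an integrin chain that pairs with Itgb1 to bind tenascin C and other ligands, stood at 1.93, 2.45 and 2.66 CPM in control and 8.01, 5.77 and 6.34 in Treg (1.51, SE 0.22, edgeR adjusted p = 0.0931). Itgb3, a chain of the vitronectin receptor, which binds periostin and CCN proteins, stood at 10.1, 8.77 and 32.8 CPM in control and 4.52, 5.41 and 4.49 in Treg (-1.84, edgeR adjusted p = 0.197). Control replicate 3 was high, and without it Itgb3 had -0.97, Itga5 -0.66 and Itga8 1.61. Of the 21 receptors, 2 then passed by edgeR, Itgb3 (adjusted p = 0.0393) and Itga8 (0.0285), where 1.3% of all genes did. The fibronectin receptor chains Itga5 and Itgb1 had -1.26 and -0.45 (edgeR adjusted p = 0.215 and 0.249). Itgb3, Itga5 and Itgb1 were among 5 of the 21 that were lower in every Treg library than in any control, as were 11.7% of all genes. Itga8 was 1 of 2 that were higher in every Treg library, as were 13.7% of all genes. The thrombospondin receptor Cd47 stood at 62.8 ± 3.75 and 61.7 ± 3.77 CPM (-0.03).

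The inducing pathways were read through lists. Of 22 YAP, TAZ and SRF responsive genes, all tested, 0 passed over all genes by edgeR, 6 were lower and 2 higher at an unadjusted p under 0.05, and the median was -0.30. Of all genes, 8.31% were lower and 8.23% higher at that p. Those of the 22 with the smallest p were Actn1 (-0.84), a cytoskeletal actinin, the growth factor Tgfb2 (-0.76), Vcl (-0.48), vinculin of adhesions, and Myl9 (-1.81), a smooth muscle light chain. Without control replicate 3, edgeR called 1.3% of all genes and 2 of the 22. These were Myl9 (-2.27, adjusted p = 0.00474) and Cnn1, smooth muscle calponin (-2.03, 0.0294). The omitted library was the lowest control for both. Myl9 was at 281, 212 and 45.2 CPM in control and 43.1, 53.7 and 56.1 in Treg. Cnn1 was at 67.3, 64.0 and 3.90 CPM in control, with replicate 3 below every Treg library (10.7, 17.1 and 20.3). Of 22 TGF-beta genes, all tested, 0 passed over all genes, 1 was lower (Tgfb2, also on the preceding list) and 1 higher (Ltbp1, 0.39) at an unadjusted p under 0.05, and the median was -0.10. The shares of all genes at that p were the same 8.31% and 8.23%. Other genes of activated fibroblasts, 24 of 24 tested, had a fold change below 0 in all 24, against 52.0% of all genes, with a median of -0.59. Acta2 was below 0 only at -0.0011. The list was chosen with earlier results of these data known, and its genes share the same libraries. The count of 24 is therefore not a test. The sign depended on single libraries for some of the 24. Cilp had 0.30 without control replicate 1 and Acta2 0.15 without Treg replicate 2. Without control replicate 2, Ddah1, Runx1, Fap and Fn1 had 0.12, 0.11, 0.087 and 0.085. Again 0 passed over all genes, while 8 were lower at an unadjusted p under 0.05 by edgeR, as were 8.31% of all genes. Mfap5 (-0.87), Tnfrsf12a (-1.39), Lox (-1.89) and Ckap4 (-0.65) had the smallest p (edgeR adjusted p = 0.0989, 0.114, 0.132 and 0.187). Without control replicate 3, 1 of the 24 passed by edgeR, Mfap5 (-0.80, adjusted p = 0.0437), where 1.3% of all genes did. Their summed level was highest in control replicate 2 (9788 CPM) and lowest in Treg replicate 2 (3426), the same 2 libraries as for the summed 10 genes (4693 and 2173 CPM). The cardiomyocyte markers had the opposite sign. Of those 11, 9 were above 0 and 2 below, where 52.0% of all genes were below, and the median was 0.28. At an unadjusted p under 0.05, 3 were higher, as were 8.23% of all genes, and 0 passed over all genes by edgeR. The calcium pump Atp2a2 (0.69), its regulator Pln (0.56), Myl2 (0.59) and Actc1 (0.30) were higher in every Treg library than in any control. So were 13.7% of all genes. Control replicate 3 was lowest for 7 of the 11 and for 31.9% of all tested genes. The part of the cardiomyocyte share in the values of the fibroblast genes was not tested.

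Genes of fibroblast identity had mostly positive differences, with 3 of 15 below 0, against 52.0% of all genes. The 3 below 0 were Pdgfra (-0.66, and -0.11 without control replicate 3), Pcolce (-0.38) and Dpep1 (-0.24). Of the 15, all tested, 0 passed over all genes by edgeR. At an unadjusted p under 0.05, 3 were higher and 0 lower, where 8.23% and 8.31% of all genes were. The median was 0.30. That median was 0.12 without control replicate 3 and 0.072 with Treg replicate 3 left out as well. Gsn (1.06), Dpt (0.54), Lum (0.66) and Dcn (0.30) had the smallest p. Their summed level was 2241 to 2674 CPM in control and 3093 to 3220 in Treg, without overlap. This rested on Gsn, gelsolin, which was at 573, 350 and 360 CPM in control and 825, 1063 and 785 in Treg: the other 14 summed to 1883 to 2101 CPM in control and 2030 to 2395 in Treg, which overlap. When each of the 10 genes was divided by this sum, a ratio chosen after the values were seen, the groups separated for 3, Ccn2, Sparc and Thbs2, all lower in Treg. That share of the 10 was under the background, since 44.3% of all tested genes separated in that direction on the same ratio. With Gsn left out of the sum, also chosen after the values were seen, the same 3 genes separated, and 21.7% of all genes did. Per 100 CPM of all 15 identity genes, Ccn2 had 26.4, 26.2 and 20.4 CPM in control and 8.39, 13.1 and 14.6 in Treg.

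Control replicate 3 held the maximum of 33.3% and the minimum of 31.9% of all tested genes. Markers of other cell types also stood apart there. Of 9 neutrophil markers, 7 were highest there, and their summed level was 7.37 to 48.0 CPM in control and 8.95 to 19.3 in Treg, while Ly6g was at 0 in all 3 controls. Of 7 erythroid genes, 7 were lowest there, and the summed level was 292 to 2851 CPM in control and 1073 to 1920 in Treg. Epicardial markers summed to 11.1 to 64.2 CPM in control, highest in that library, and 12.5 to 22.7 in Treg. Most of the excess was Aldh1a2 (1701 counts against 162 to 524), and the mesothelial marker Upk3b had 1 count there. The part of these cells in the high Tnc, Thbs1 and Ccn1 was not tested. Smooth muscle and pericyte markers summed to 3798 to 7507 CPM in control, highest in replicate 1, and 3111 to 4259 in Treg, lowest in replicate 1, which are also the extremes of Ccn2. Des, which cardiomyocytes share, made up most of that sum and had the same extremes (6643 CPM in control replicate 1, 2273 in Treg replicate 1). Of the 10 markers, 2 were highest in control replicate 1, where 12.3% of all tested genes were. Treg replicate 1 was lowest for 1 of the 10 and for 12.7% of all tested genes. The fold change was below 0 for 6 of the 10 markers, against 52.0% of all genes. Myh11, smooth muscle myosin, was higher in every Treg library than in any control (0.68, edgeR adjusted p = 0.148), as were 13.7% of all genes. Cspg4, on the same list, was lower in every Treg library than in any control (-0.48, edgeR adjusted p = 0.207), as were 11.7% of all genes. The part of Des and of smooth muscle in the Ccn2 values was not tested. Macrophage markers summed to 469 to 1106 CPM in control, highest in replicate 2, and 483 to 689 in Treg.

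Without control replicate 3, edgeR called 1.3% of all genes and still 0 of the 10. The smallest adjusted p among the 10 was then 0.142, and 8 of the 10 were below 0. Without control replicate 2 their median log2 fold change was -0.19, and without Treg replicate 3, where all 10 were below 0, it was -0.55.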

How the data were processed

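RNA sequencing counts of 6 libraries were analysed, 3 in each group, by the group and replicate number in the sample titles. The authors deposited one table of estimated counts per Ensembl gene, not normalized, and 46.5% to 50.0% of each library's nonzero values are fractional; 6 further columns of per-sample values that match no listed sample were not used. Build GRCm38 and the tools featureCounts 2.0.6, HISAT2 2.1.0, Trimmomatic 0.39 and Cuffdiff 2.2.1 are listed, per the submitters' processing notes, without roles; the strand setting and annotation are not given by the sources used here. The division of reads between genes can shift the values of overlapping or near-identical genes.

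Estimated counts were rounded (library totals changed by at most 0.0087%). GENCODE M21 gave symbols, coordinates and merged exon lengths for 47310 IDs; 419 had none. Genes were kept by filterByExpr (17365), scaled by TMM, and tested two-sided in edgeR 4.0.16 (R 4.3.3) by robust quasi-likelihood F tests without covariates. Benjamini-Hochberg adjustment ran over all genes at 0.05. An SE is the size of the log2 fold change over root F. CPM uses TMM-scaled library sizes. DESeq2 1.42.0 and limma-voom (limma 3.58.1), RLE and upper-quartile scaling, other filters, removal of mitochondrial genes, a replicate block and omitted libraries were alternatives; the omitted-library values of list genes and the sum without Gsn were added after seeing the data. The 10 genes and the gene lists were chosen with earlier results of these data known. All 10 genes are named. From each pathway list up to 4 tested genes with the smallest p are named, and family relatives whatever their values. Cd47, Comp, Cnn1, Jun, Egr1, Fosb, the activated fibroblast genes whose sign changed and marker genes were named after their values were seen. On counts simulated for the 17365 genes of this comparison, edgeR recovered 51% of genes changed 2-fold and 91% of those changed 4-fold, with 13 false calls.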

Additional observations from a re-analysis of the deposited data

How the results depend on the processing

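No alternative brought any of the 10 genes past the threshold: the count was 0 with DESeq2, limma-voom, RLE and upper-quartile scaling, no filter, a filter at 1 CPM, removal of mitochondrial genes, the replicate block, and with any library left out. The number of all genes past the threshold was 0 with all 6 libraries, 650 with DESeq2, 38 with no filter, 119 without control replicate 3 and Treg replicate 3 together, and from 0 to 230 when 1 library was left out, the highest being without control replicate 3; the cause was not tested. Across the alternatives, 141 fold changes of the 10 genes kept their sign and 9 did not. With control replicate 3 and Treg replicate 3 both left out, Thbs4 had -0.57 and Ccn1 0.0041, Ccn5 moved from -0.18 to -0.76 (edgeR adjusted p = 0.127, the smallest of any of the 10 in any edgeR, DESeq2 or limma-voom alternative), and Cthrc1 had -1.33, Postn -0.95 and Ccn2 -0.95; the median of the 10 was -0.60 against -0.41 with all libraries, and the cause was not tested. Leaving out 1 library at a time gave Tnc -2.32 to 0.40, Thbs4 -0.22 to 0.61, Ccn1 -0.45 to 0.14, Ccn5 -0.48 to 0.087 and Cthrc1 -1.04 to 0.040. The sign changed for Tnc and Ccn1 without control replicate 3, for Thbs4 without either group's replicate 3 (-0.22 and -0.18), for Ccn5 without control replicate 1 or Treg replicate 2 (0.026), and for Cthrc1 without control replicate 2. No sign of pairing by replicate number was seen, although 3 libraries in each group cannot exclude it. Deviations of same-numbered libraries from their group means correlated at -0.142, -0.236 and 0.042. The replicate block left the number of genes past the threshold at 0 by edgeR (smallest adjusted p 0.212 against 0.0847 without the block).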
